A study of Sus scrofa with 2 samples.

Results

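The genes of the proteasome were measured in single cultured stem cells from pig fat. All 49 genes were taken, of 28155 in the files, whose symbol starts with PSM followed by a letter from A to G and a number. Of these, 48 encode a subunit of the proteasome, an assembly chaperone, an activator or a regulator. PSMC3IP is the exception: its symbol was matched by the rule, but it encodes a partner of recombinases in the repair of DNA breaks and is no subunit. The rule itself uses names only and no measured value, but it was chosen with earlier results of these data known. It leaves out proteasome proteins with other symbols, such as SEM1 and ADRM1 of the 19S particle and POMP, a chaperone of the core, so counts and rankings below hold among genes with PSM symbols.

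The cells were adipose-derived stem cells (ADSCs), fibroblast-like progenitors that grow out of digested fat. They came from the chest fat of healthy Bama miniature pigs, were grown for 3 generations in at most 14 days, and were frozen for later use. The labels give 1 group, with no treatment, no age and no second genotype, and 2 libraries made with the Chromium 3' chemistry (v3.1). Whether these stem from different animals or cultures is not stated. The p-values below set differences between groups of cells only against how these differences vary between the 2 libraries, which may be technical. After barcodes with fewer than 1000 detected genes were left out, library 1 held 10559 cells (median 19845 unique molecular identifiers, or UMIs) and library 2 held 11984 cells (median 19652 UMIs). Of 10 stromal markers 9 stood at 10 CPM (the UMIs of a gene per 1e+06 UMIs of its library) or more in each library. The lymphocyte list summed to 2.57 and 1.01 CPM, the macrophage list to 29.3 and 23.0 CPM, of which CD14 was 25.4 and 21.7, and the endothelial list to 58.9 and 84.1 CPM, of which ERG was 47.0 and 68.9. The libraries share 35 cell barcodes.

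The proteasome is the barrel-shaped protease that degrades ubiquitin-tagged proteins in the cytoplasm and nucleus. Its 20S core is built from alpha rings, which gate the entry, and beta rings, in which PSMB5, PSMB6 and PSMB7 carry the chymotrypsin-like, caspase-like and trypsin-like activities. The 19S particle caps the core, binds ubiquitin chains, removes them and unfolds the substrate with a ring of ATPases. In cells exposed to interferon-gamma, PSMB8, PSMB9 and PSMB10 replace the catalytic subunits in newly made cores (the immunoproteasome), and the PA28 activator made of PSME1 and PSME2 is induced, which changes the peptides offered on MHC class I.

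Transcripts of the constitutive 20S core were the most abundant of the complex in both libraries, and each inducible catalytic subunit lay below every constitutive core gene. In this chemistry a molecule is counted once from its 3' end, so no length correction was made. How well the annotation covers each 3' end can still affect a comparison between genes, and an effect of gene length was not tested. All 49 genes together took 0.608% of the UMIs of library 1 and 0.595% of those of library 2. The 14 constitutive 20S genes took 0.323% and 0.311%, and the 17 genes of the 19S particle 0.180% and 0.181%. Of the 49 genes, 46 reached a mean of 10 CPM.

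The highest level was that of PSMA7, an alpha ring subunit, with 404 CPM (library 1) and 427 CPM (library 2). PSMB6 followed with 417 and 369 CPM, so that the order of these leading genes differs between the libraries. PSMB1 and PSMB2, beta subunits without a catalytic site, were at 337 and 326 CPM and at 289 and 301 CPM. The fifth by mean was not a core subunit but PSME1, one of the PA28 genes, at 268 and 275 CPM. Subunits that stand in equal number in the assembled core thus differed in transcript level: from the lowest constitutive 20S gene, PSMB3, to the highest the ratio was 4.60 in library 1 and 5.95 in library 2. Within the 19S particle the same ratio was 3.66 and 3.58, and PSMD8 was the highest of the 17 in both libraries at 218 and 208 CPM.

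**Figure D1:**
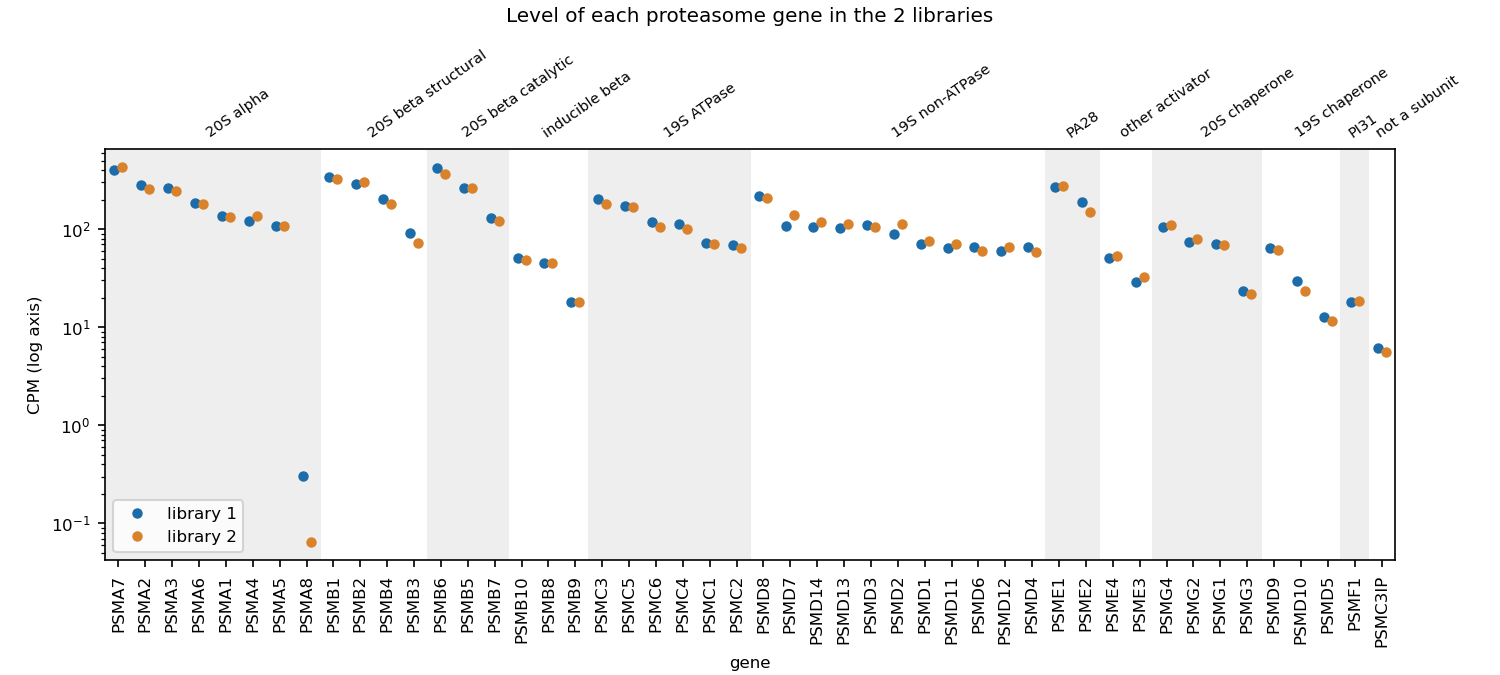
Level of each proteasome gene in CPM (log axis) in library 1 (blue) and library 2 (orange), grouped by role and sorted by mean within a role. PSMB11, with 0 UMIs, cannot be drawn on a log axis; the inducible subunits PSMB8, PSMB9 and PSMB10 lie below all constitutive 20S genes, and the points of both libraries lie close together except for PSMA8.

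At the lower end, PSMB9 had 18.0 CPM (library 1) and 18.2 CPM (library 2). PSMD5, a chaperone for the base of the 19S particle, was at 12.6 and 11.6 CPM, and PSMC3IP at 6.14 and 5.61 CPM. The tissue-restricted subunits were at or near 0. PSMB11, the thymus subunit, had 0 UMIs in both libraries, with an exact Poisson upper limit (95%, counting error only) of 0.0176 and 0.0150 CPM. PSMA8, the alpha subunit of the testis, had 64 UMIs in library 1 and 16 UMIs in library 2 (0.305 and 0.0652 CPM). In each library these fell in 16 cells, but in library 1 they were uneven: 12 cells held 1 UMI each, 3 held 5 or more, and the highest held 28.

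Levels of the proteasome genes were close between the libraries, as were those of most genes at 10 CPM or more. Among the 46 at 10 CPM or more, the log2 ratio of library 1 to library 2 had a median of 0.04 and ran from −0.37 for PSMD2, a scaffold of the 19S base, to 0.35 for PSME2. None of them differed 2-fold. Of all 8042 genes at that level 3.16% did, so 0 of 46 is near the share of all genes. PSMB8, PSMB9 and PSMB10 differed by −0.01 to 0.07. Each library is a single sample, so these differences have no test.

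The share of the inducible subunit in each catalytic pair was low, and it differed between the pairs. PSMB8 made up 14.8% (95% exact binomial interval 14.503 to 15.053) of the UMIs of PSMB8 and PSMB5 in library 1 and 14.7% (14.493 to 15.002) in library 2. PSMB9 made up 4.14% (4.01 to 4.27) and 4.70% (4.56 to 4.83) of its pair with PSMB6. PSMB10 made up 28.2% (27.7 to 28.6) and 29.0% (28.5 to 29.4) of its pair with PSMB7. Read the other way, the constitutive gene of each pair was higher in both libraries, by 5.77 and 5.78 times for PSMB5, by 23.2 and 20.3 times for PSMB6 and by 2.55 and 2.45 times for PSMB7. The intervals cover counting error only. Those of PSMB9 do not overlap between the libraries, and its counterpart PSMB6 was at 417 and 369 CPM while PSMB9 itself was at 18.0 and 18.2 CPM.

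The PA28 genes did not share the low level of the inducible subunits. PSME1 was at 268 and 275 CPM and PSME2 at 189 and 148 CPM, in the range of the constitutive core. PSME3, the nuclear activator PA28-gamma, was at 29.1 and 32.2 CPM, and PSME4, the activator PA200, at 50.9 and 52.7 CPM. Among the core chaperones PSMG1 to PSMG4, PSMG4 was highest with 106 and 110 CPM and PSMG3 lowest with 23.3 and 21.97 CPM.

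In the RefSeq annotation of Sscrofa11.1, the build the submitters' processing notes give, PSMB8 (chr7:25058456-25061666) and PSMB9 (chr7:25072133-25077508) lie in the MHC region on either side of TAP1, next to TAP2. TAP1 and TAP2 form the transporter that carries peptides into the endoplasmic reticulum, and the 4 genes span 32424 bases. PSME2 (chr7:75154570-75157871) and PSME1 (chr7:75161830-75164531) are neighbours farther along the chromosome, on which PSMB5 (chr7:76014576-76021922) also lies. Of the 49 genes, 11 overlap another annotated gene, among them PSMC3IP (MLX), PSME1 (EMC9), PSMA7 (LSM14B), PSMD10 (ATG4A), PSMD1 (HTR2B), PSMD14 (TBR1 and LOC100739694) and PSMG2 (CEP76). Whether the counting used strand is not given in the sources used here, so whether reads of such overlapping genes were kept apart is not known.

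To compare cells of unequal depth, UMIs were drawn at random until every cell had 5000, which left out 978 shallower cells of library 1 and 386 of library 2. After thinning, PSMB6 had a UMI in 86.4% and 82.3% of cells, PSMB5 in 71.4% and 71.1%, and PSMB7 in 47.4% and 43.0%. The inducible genes were found in far fewer: PSMB8 in 19.3% and 18.8% of cells, PSMB9 in 8.05% and 8.11%, and PSMB10 in 21.4% and 20.3%. Without thinning these shares were 50.3% and 53.4% for PSMB8 and 26.8% and 27.7% for PSMB9, so they follow depth and are not shares of cells that express the gene. For genes these cells should lack, the thinned shares were 0.0209% and 0.0259% for PTPRC of blood cells and 0.0731% and 0% (at most 0.0259%) for ADIPOQ of fat cells, well below those of PSMB8 and PSMB9. Not every marker of other cell types was so low. CD14 (25.4 and 21.7 CPM) and ERG (47.0 and 68.9 CPM) lay above PSMB9 (18.0 and 18.2 CPM).

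Single proteasome genes varied over cells about as much as other genes of their level. For 42 members with a mean of 0.1 to 2 UMIs per thinned cell, the variance over cells divided by the mean, which is 1 where counts vary by sampling alone, had a median of 1.04 in library 1 and 1.03 in library 2. Over all genes in that range of means it was 1.06 and 1.04. The sum over all 49 genes was 29 UMIs per thinned cell at the median in both libraries, and 90% of cells lay between 17 and 43 in library 1 and between 18 and 42 in library 2. The variance of this sum was 2.08 and 1.84 times its mean. This ratio depends on the mean, so it cannot be set against that of single genes, and no sum of other genes was taken. Over cells, the summed 20S and 19S counts had a Pearson r of 0.31 in 9581 cells and 0.28 in 11598 cells, given as a description of cells that share a library.

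Detection of PSMB9 was set against that of its partners in the same thinned cells. PSMB8 and PSMB9 were found together in 161 cells of library 1, or 1.08 times the number given by the product of their shares, and in 212 cells of library 2, or 1.20 times. For PSMB9 and PSMB10 these ratios were 1.22 and 1.13, and for PSMB9 with PSMB6, the subunit it replaces, 0.997 and 1.013. PSMB9 and TAP1, neighbours on the chromosome, gave 1.28 in library 1 and 1.00 in library 2. These are descriptions, with no test.

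Cells within each library were then compared by classes set from other genes. Counts were summed per library and class and tested with edgeR's quasi-likelihood test over all genes, with the library as a block. A gene was called higher or lower at a Benjamini-Hochberg adjusted p under 0.05 with the same sign in both libraries. No minimum size was required. Fold changes are scaled by TMM over all genes and can differ slightly from ratios of the CPM values. With 1 residual degree of freedom (2 for the cell cycle phases), the tests rest on a spread pooled over genes.

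Most proteasome genes were higher in cycling cells. A cell was called cycling when it held UMIs of at least 3 of 15 core cell cycle genes (3855 cells in library 1 and 4608 in library 2) and non-cycling when it held none (1883 and 2486 cells). Of 47 members tested, 33 were called higher in cycling cells and 1 lower, while over all genes 22% were called higher and 22.9% lower. The median log2 fold change was 0.21 for the members and −0.01 for all genes. The changes were small: 2 members, PSMC3IP and PSMD14, were called and also changed by at least 0.5 on the log2 scale, as did 8.35% of all genes upward and 9.76% downward. In 37 of the 47 the CPM of both libraries in cycling cells lay above both in non-cycling cells (27.9% of all genes), and in 1, PSME4, below (18.8%).

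By part of the complex, the calls were spread as follows; differences between parts were not tested. All 11 PSMD genes for non-ATPase subunits of the 19S particle were called higher, while SEM1, a further non-ATPase subunit, did not pass (298.5 and 288 CPM in non-cycling, 299.9 and 297.5 CPM in cycling cells, −0.03 ± 0.05). Of the 6 ATPases 2 were called higher, PSMC1 (0.37 ± 0.06, SE) and PSMC6 (0.28 ± 0.05). Of the 7 alpha subunits tested 6 were called higher, all but PSMA6, and of the structural beta subunits 3 of 4, all but PSMB4. All 4 chaperones that assemble the core (PSMG1 to PSMG4) were called higher, and 1 of the 3 chaperones of the 19S base, PSMD5.

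PSMD14, the deubiquitinase that cuts ubiquitin chains off the substrate at the 19S particle, was at 84.6 and 96.2 CPM in non-cycling cells of libraries 1 and 2 and at 126 and 143 CPM in cycling cells. Its log2 fold change of 0.52 ± 0.05 (SE, edgeR adjusted p = 6.65e-12) was the largest among the subunits. PSMD1, a scaffold of the 19S base, went from 59.7 and 61.6 to 81.5 and 89.0 CPM (0.43 ± 0.06). PSMD7, the partner of PSMD14 in the lid, went from 88.4 and 117 to 127 and 155 CPM (0.40 ± 0.06). The largest change of all was that of PSMC3IP, which is no subunit: 1.18 and 1.46 CPM in non-cycling and 10.3 and 9.83 CPM in cycling cells, a log2 fold change of 2.84 ± 0.13.

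The catalytic subunits changed by at most 0.26 on the log2 scale. Of the constitutive 3, only PSMB5 passed, from 237 and 236 to 287 and 281 CPM (0.20 ± 0.05, edgeR adjusted p = 0.00132). PSMB6 (0.10 ± 0.05) and PSMB7 (0.09 ± 0.05) did not pass. PSMB8 was called higher, from 40.1 and 41.7 to 48.5 and 47.1 CPM (0.17 ± 0.06, edgeR adjusted p = 0.0158), and so was PSMB9, from 16.1 and 16.3 to 20.6 and 20 CPM (0.26 ± 0.07, edgeR adjusted p = 0.00175). Both calls were lost with DESeq2 (adjusted p = 0.208 and 0.125), and that of PSMB8 also without the 8% of cells with most UMIs (adjusted p = 0.106 by edgeR). PSMB10, with 52.6 and 47.7 CPM in non-cycling and 52.4 and 50.3 CPM in cycling cells, did not pass, and the sign of its change (−0.02) turned when library totals replaced TMM (0.04).

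Among the activators, PSME2 was called higher, from 174 and 131 to 202 and 161 CPM (0.20 ± 0.05), and PSME3 as well (0.34 ± 0.06). PSME1 did not pass (−0.05 ± 0.05). The single gene called lower was PSME4, from 50.9 and 52.7 to 47.7 and 49.8 CPM (−0.15 ± 0.06, edgeR adjusted p = 0.0268), a call lost with library totals, with DESeq2, without the filter on low counts and without the cells with most UMIs. Cycling cells held more UMIs (median 22695 against 19836 in library 1, 20679 against 20010 in library 2), and their 10 stromal markers summed to less (5309 against 7178 CPM and 6568 against 9465 CPM). The part of these differences in the results was not tested. With the library left out of the model, 1 member was called higher and 0 lower.

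**Figure D2:**
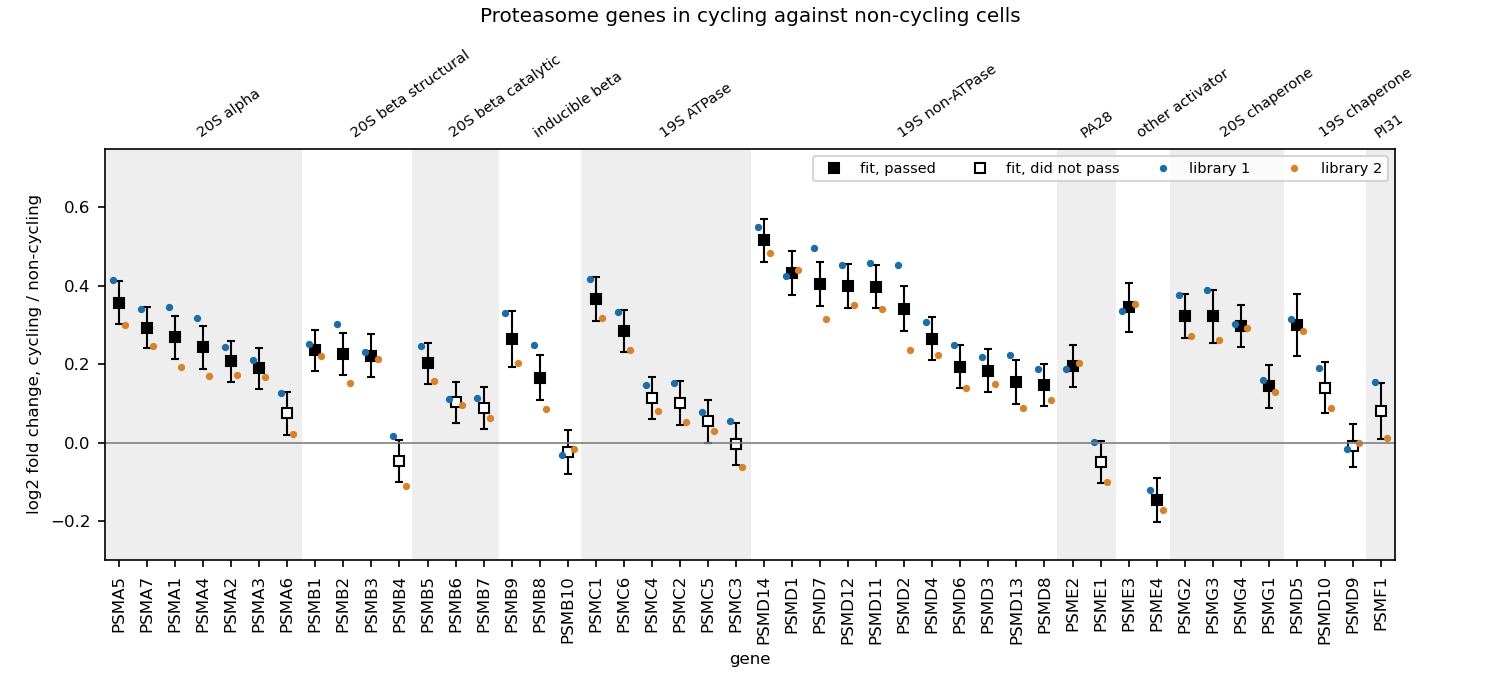
Log2 fold change of 46 proteasome genes in cycling against non-cycling cells, by role (PSMC3IP, at 2.84, is not drawn). Squares are the edgeR fit with its SE, filled where the gene was called; dots are the values of library 1 (blue) and library 2 (orange). All 11 PSMD genes for non-ATPase 19S subunits lie above 0, and PSME4 is the single called gene below it.

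Among the partners of the proteasome in a list of 25 genes, of which 23 were found, 11 were called higher in cycling cells and 3 lower. UCHL5, a deubiquitinase of the 19S particle, had the largest change among them, from 33.9 and 41.3 to 61.9 and 72.6 CPM (0.78 ± 0.06). PAAF1, a chaperone of 19S ATPases (0.52), and NPLOC4, a cofactor of the unfoldase VCP (0.35), were higher as well. Of 15 ubiquitin and ubiquitin-transfer genes, 5 were called higher and 4 lower. UBE2S, which extends ubiquitin chains for the anaphase-promoting complex, was higher by 2.56 ± 0.06, UBA6, a ubiquitin-activating enzyme, by 0.40, OTUB1, a deubiquitinase, by 0.28 and UBE2N, a conjugating enzyme, by 0.28. Of 19 MHC class I genes 5 were called higher and 6 lower. For the ubiquitin and MHC class I lists these shares are near the 22% and 22.9% of all genes called.

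By phase, all 4 PSMG chaperones of the core were called higher in S cells, and most subunits in G2/M cells. The CPM of these 4 chaperones also lay above the non-cycling values in G2/M cells of both libraries, so their rise was not seen in S cells alone. This is not particular to them: it held for 39 of the 47 members tested, and the share of all genes was not taken. Cells were put in the S class by at least 3 of 15 S phase genes and at most 1 of 15 G2/M genes (245 cells in library 1 and 361 in library 2), in the G2/M class by the reverse (1871 and 2274 cells), and in the non-cycling class by none of either list (2371 and 3596 cells). The S class is small, and both phases are set against the same non-cycling cells.

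In the S class 19 of 47 members were called higher and 3 lower, while 13.6% of all genes were called higher and 16.1% lower; the median was 0.10 for the members and −0.05 for all genes. All 4 PSMG chaperones passed. PSMG4 went from 93.1 and 94.3 CPM in non-cycling cells to 140 and 132 CPM in S cells (0.44 ± 0.06, edgeR adjusted p = 1.52e-05). Of the 14 constitutive 20S genes 5 were called higher and 1 lower, and of the 17 PSM genes of the 19S particle 6 were called higher. PSMD14 (0.49 ± 0.05) and PSMD1 (0.38 ± 0.06) led these. PSMC3IP went from 1.03 and 1.00 to 21.5 and 16.4 CPM (4.09 ± 0.17), and it was the 1 member that changed by at least 0.5 on the log2 scale, as did 7.72% of all genes upward and 5.71% downward.

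Of the inducible subunits, PSMB10 alone was called in S cells. It was higher, from 49.9 and 45.4 to 61.4 and 59.9 CPM (0.26 ± 0.07, edgeR adjusted p = 0.00583), whereas PSMB8 (0.04 ± 0.07) and PSMB9 (0.10 ± 0.11) did not pass. PSMB5 (0.17 ± 0.04) and PSME2 (0.21 ± 0.05) were called higher, and PSMB6 (0.07 ± 0.04) and PSMB7 (0.09 ± 0.06) did not pass. Lower in S cells were PSME4, from 51.1 and 54.3 to 42.5 and 47.0 CPM (−0.33 ± 0.07), PSME1 (−0.16 ± 0.05) and PSMB4 (−0.13 ± 0.05). The calls of PSME1 and PSMB4 were lost when library totals replaced TMM, and with classes set without thinning PSME1 was at 0.03. Without the library in the model 1 member was called higher and 0 lower, and with classes set without thinning 5 and 1.

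In the G2/M class 38 of 47 members were called higher than in non-cycling cells and 0 lower, beside 19.7% and 19.9% of all genes; 39 of the 47 had an unadjusted p under 0.05, and the median was 0.24 against −0.01. All 7 alpha subunits tested, all 11 PSMD genes for non-ATPase subunits and 5 of 6 ATPases passed. PSMD14 went from 79.1 and 90.6 to 123 and 138 CPM (0.57 ± 0.05), PSMA5, an alpha subunit, from 85.4 and 88.0 to 127 and 123 CPM (0.47 ± 0.05), and PSMD1 from 58.2 and 59.6 to 78.1 and 87.9 CPM (0.44 ± 0.05). PSMC3IP had the largest change (2.59 ± 0.15), and it and PSMD14 were the 2 members past 0.5 on the log2 scale, beside 6.92% of all genes upward and 8.81% downward. Of the catalytic subunits, PSMB5 (0.20 ± 0.04), PSMB6 (0.14 ± 0.04) and PSMB9 (0.29 ± 0.08) passed, while PSMB7 (0.07 ± 0.05), PSMB8 (0.12 ± 0.06) and PSMB10 (−0.10 ± 0.05) did not. PSME2 was called higher (0.22 ± 0.04) and PSME1 did not pass (−0.03 ± 0.04). Without the library in the model 2 members were called higher.

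Set directly against the S class, 18 members were higher in G2/M cells and 3 lower, beside 11.2% and 9.09% of all genes; the medians were 0.14 and 0.03. Of the 17 PSM genes of the 19S particle 10 were called higher. PSMC6, a 19S ATPase, was at 105 and 91.4 CPM in S cells and at 139 and 123 CPM in G2/M cells (0.45 ± 0.06, edgeR adjusted p = 2.31e-05), after levels of 102 and 92.2 CPM in non-cycling cells. PSMB1 was also highest in G2/M cells, with 294 and 286 CPM in non-cycling, 305 and 302 CPM in S and 389 and 380 CPM in G2/M cells (0.38 ± 0.04). PSMD10, a 19S chaperone also known as gankyrin, rose by 0.38 ± 0.09, though not with classes set without thinning (−0.02), and PSMD4, a ubiquitin receptor, by 0.30 ± 0.07.

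The genes lower in G2/M than in S cells were PSMC3IP (−1.51 ± 0.14), PSMB10 and PSMG4. At a change of at least 0.5 on the log2 scale 0 were higher and 1 lower, beside 3.27% and 5.13% of all genes. PSMB10 was at 61.4 and 59.9 CPM in S cells and 47.9 and 44.1 CPM in G2/M cells (−0.36 ± 0.07, edgeR adjusted p = 0.00089). PSMG4 was at 140 and 132 CPM in S cells and 107 and 111 CPM in G2/M cells (−0.27 ± 0.06). PSMB8 (0.08 ± 0.07), PSMB9 (0.19 ± 0.11), PSMB5 (0.03 ± 0.04), PSMB6 (0.07 ± 0.04), PSMB7 (−0.02 ± 0.06), PSME1 (0.13 ± 0.05) and PSME2 (0.01 ± 0.05) did not pass. DESeq2 called 9 members higher and 3 lower, classes set without thinning gave 7 and 2, and the model without the library 0 and 0.

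**Figure D3:**
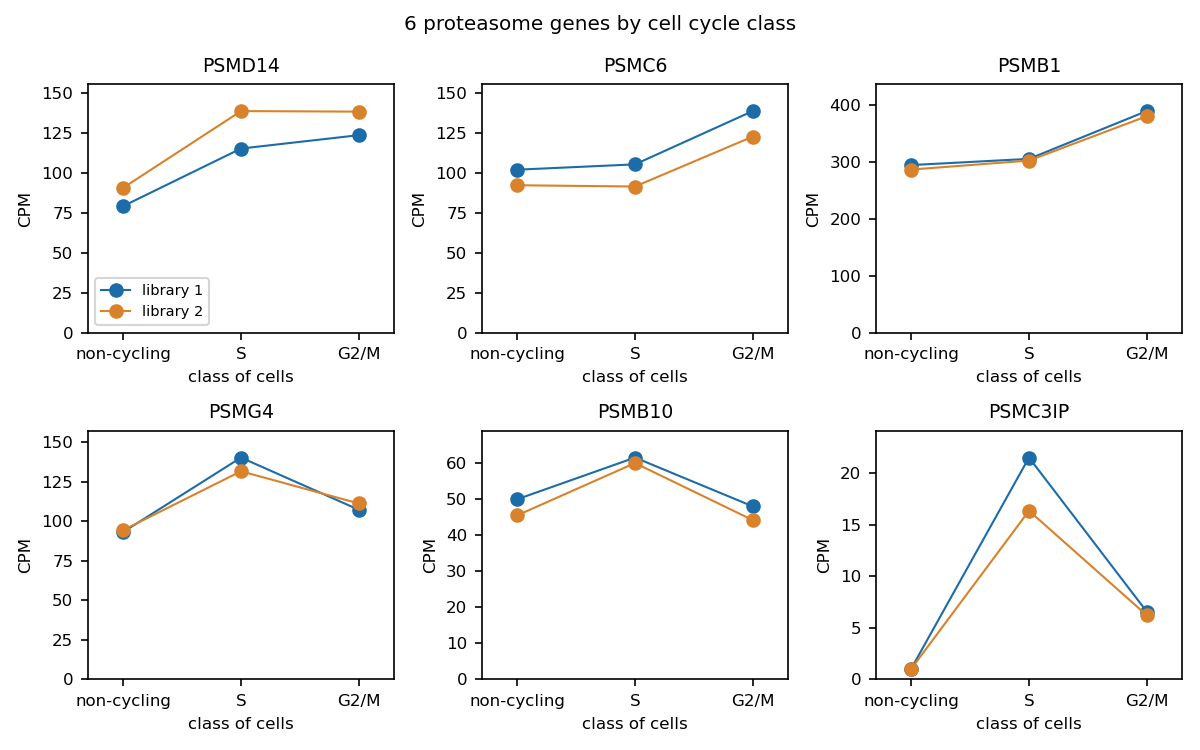
CPM of 6 genes in the non-cycling, S and G2/M classes of library 1 (blue) and library 2 (orange); each point is the sum over the cells of a class, and the axes start at 0. PSMD14 is raised in both phases, PSMC6 and PSMB1 in G2/M, and PSMG4, PSMB10 and PSMC3IP are highest in S.

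Partner genes were called in both phases. In S cells 6 of 23 were called higher than in non-cycling cells and 4 lower, and in G2/M cells 10 and 4. UCHL5 was higher in both (0.66 ± 0.07 and 0.78 ± 0.06), while ZFAND5, which stimulates the 26S proteasome, was lower in S cells, from 128 and 86.0 to 96.5 and 67.9 CPM (−0.46 ± 0.06). UBB, a polyubiquitin gene, fell by 0.32 on the log2 scale in S cells, from 2448 and 1757 to 2053 and 1536 CPM. Between G2/M and S cells, AKIRIN2, which takes proteasomes into the nucleus, was higher in G2/M by 0.36 ± 0.07, TXNL1, a 19S-bound thioredoxin, by 0.35, and VCP by 0.29. MHC class I genes included SLA-2 (−0.34), SLA-1 (−0.36) and B2M (−0.33), all lower in S than in non-cycling cells. Of the 15 ubiquitin genes 4 were called higher and 5 lower in S cells, and 5 and 4 in G2/M cells, and of the 19 MHC class I genes 2 and 4, and 6 and 5. Between G2/M and S cells the partner list had 6 higher and 0 lower, the ubiquitin list 6 and 1, and the MHC class I list 5 and 2. Over all genes, 13.6% were called higher and 16.1% lower in S cells, and 19.7% and 19.9% in G2/M cells. Between G2/M and S cells these shares were 11.2% and 9.09%.

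The composition of the catalytic pairs moved by a few percentage points over these classes. PSMB10 made up 28.8% of its pair in non-cycling cells of both libraries, 29.6% (26.9 to 32.4) and 32.8% (30.4 to 35.3) in S cells, and 26.5% (25.5 to 27.6) and 26.2% (25.3 to 27.2) in G2/M cells. In library 2 the S interval lies above the others, and in library 1 it overlaps both of them. PSMB8 stayed between 13.9% and 15.4% of its pair, and PSMB9 between 3.56% and 4.88%.

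**Figure D4:**
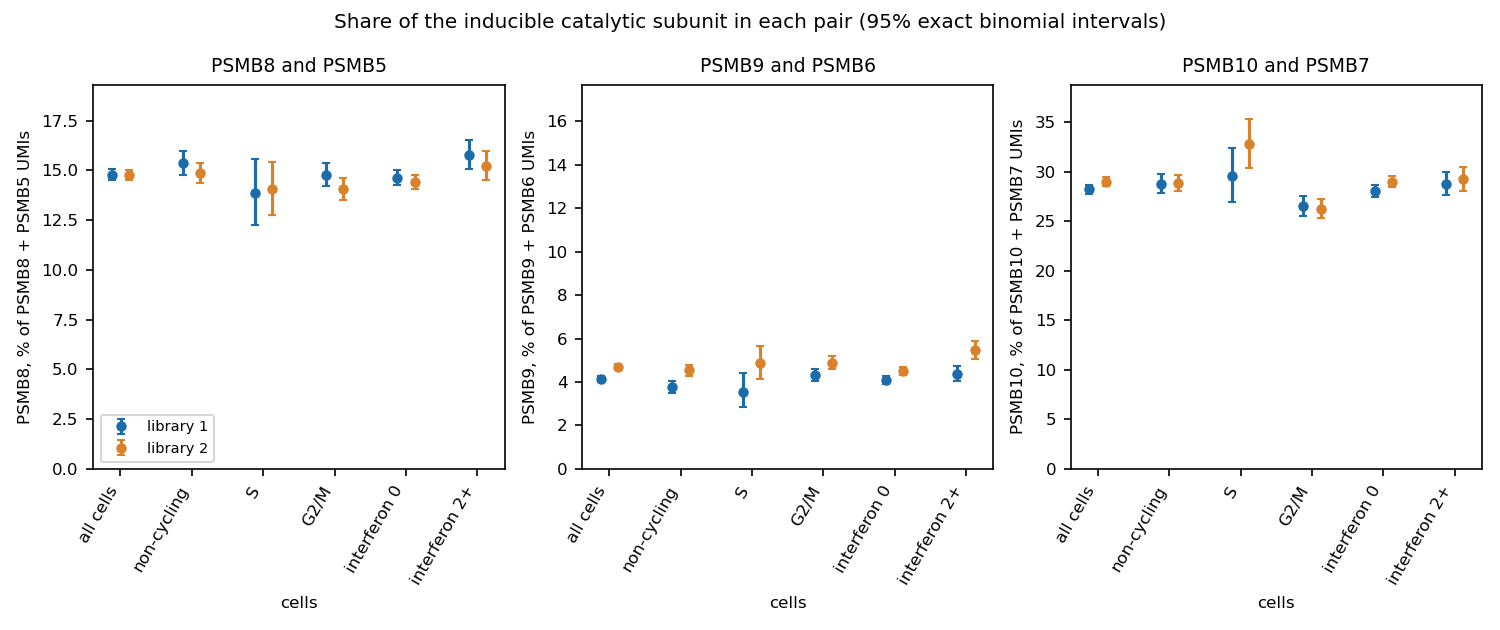
Percent of the UMIs of each catalytic pair that came from the inducible subunit, in all cells, the 3 cell cycle classes and cells with 0 or at least 2 interferon-response genes detected, for library 1 (blue) and library 2 (orange). Bars are 95% exact binomial intervals for counting error; PSMB10 takes the largest share (28.2% and 29.0% in all cells) and PSMB9 the smallest (4.14% and 4.70%).

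Cells with interferon-response transcripts differed little in the proteasome, and the share of its genes called higher was near that of all genes. Cells were grouped by 18 genes of the antiviral interferon response, 17 of which were found and none of which is a proteasome gene. UMIs of at least 2 of them were found in 1545 cells of library 1 and 1481 of library 2, and none in 4855 and 6492 cells. The list summed to 399 and 408 CPM in the first class and to 91.9 and 81.5 CPM in the second. Of 47 members 3 were called higher and 6 lower, beside 7.37% and 6.17% of all genes, and the median was −0.01 for the members and 0.01 for all genes. At a change of at least 0.5 on the log2 scale 0 members were higher and 1, PSMC3IP, lower, beside 0.868% and 0.891%.

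PSMB9 went from 17.9 to 18.7 CPM in library 1 and from 17.4 to 21.2 CPM in library 2. Its log2 fold change was 0.19 ± 0.06 (SE, edgeR adjusted p = 0.0200), with 0.08 in library 1 alone and 0.29 in library 2 alone. PSME2 (189 to 194 CPM and 146 to 156 CPM, 0.08 ± 0.02) and PSME1 (266 to 272 CPM and 272 to 287 CPM, 0.07 ± 0.02) were also called higher. All 3 calls were lost with DESeq2, within cells that had no core cycle gene and without the library in the model. The classes without core cycle genes were much smaller, with 338 and 406 cells with interferon genes and 854 and 1294 without. PSMB8 was at 45.5 and 44.0 CPM in the cells without and 48.3 and 46.1 CPM in those with interferon genes, and it did not pass (0.09 ± 0.04, edgeR adjusted p = 0.0925). PSMB10 (0.04 ± 0.04), PSMB5 (−0.02 ± 0.02), PSMB6 (−0.02 ± 0.02) and PSMB7 (0.00 ± 0.03) did not pass either.

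With at least 3 interferon genes required (392 and 377 cells), the change of PSMB9 was 0.50 (edgeR adjusted p = 1.49e-06) and PSMB8 was called higher by 0.23 (edgeR adjusted p = 0.00692), while PSMB10 was at −0.01. In the MHC class I list 8 of 19 genes were called higher and 0 lower: TAP1 by 0.29 ± 0.06 (14.5 to 17.1 and 15.3 to 19.1 CPM), SLA-2, a classical class I heavy chain, by 0.28, IRF1, a transcription factor of the interferon response, by 0.23 and SLA-1 by 0.22. The SLA genes are close copies of each other, so the assignment of reads among them is uncertain. Of the partners 2 were called higher and 2 lower, and of the ubiquitin genes 1 and 1. The counts of these lists hold for the class with at least 2 interferon genes, where 7.37% of all genes were called higher and 6.17% lower.

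The members lower in these cells were PSMC3IP (6.85 to 4.13 and 5.96 to 4.18 CPM, −0.61 ± 0.10), PSMG4 (−0.12 ± 0.03), PSMG2 (−0.10 ± 0.03), PSMD14 (−0.10 ± 0.03), PSMA7 (−0.09 ± 0.02) and PSMD7 (−0.08 ± 0.03). With classes set without thinning, PSMG4 (0.08) and PSMG2 (0.05) turned sign. The core cell cycle list summed to less in the interferon class, at 1079 against 1476 CPM in library 1 and 1042 against 1473 CPM in library 2. Within cells that had no core cycle gene, 0 members were called higher and 0 lower; there PSMB9 was at 0.28 (edgeR adjusted p = 0.387) and PSMD14 at −0.05. The 9 macrophage markers summed to 32.8 against 28.1 CPM in library 1 and 24.4 against 22.6 CPM in library 2, with C1QA at 0 throughout, and the lymphocyte list did not exceed 2.60 CPM, with CD3D, CD2 and MS4A1 at 0. DESeq2 called 0 members higher and 1 lower, and 0 passed in either direction without the library in the model.

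Cells in which PSMB9 itself was detected after thinning (771 in library 1 and 941 in library 2) were compared with the rest (8810 and 10657 cells), leaving PSMB9 out. PSMB8 was the 1 member of 47 called higher, and 0 were lower, beside 0.128% and 0.401% of all genes. It went from 44.9 to 52.5 CPM in library 1 and from 44.4 to 51.6 CPM in library 2 (0.21 ± 0.04, edgeR adjusted p = 0.0186). At a change of at least 0.5 on the log2 scale 0 members were called, beside 0.0446% of all genes upward and 0.0335% downward. PSME2 was at 188 and 147 CPM without and 209 and 160 CPM with PSMB9 (0.13 ± 0.03, edgeR adjusted p = 0.0615), and PSMB10 at 50.5 and 48.8 against 61.0 and 50.5 CPM (0.15 ± 0.05, edgeR adjusted p = 0.287; 0.28 in library 1 and 0.03 in library 2). The constitutive PSMB5 (0.00 ± 0.03), PSMB6 (0.03 ± 0.03) and PSMB7 (0.03 ± 0.03) and PSME1 (0.05 ± 0.03) did not pass.

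Of the MHC class I genes, SLA-3 (0.25 ± 0.05) and SLA-2 (0.15 ± 0.03) were called higher in PSMB9-detected cells, and TAP1 was at 0.16 ± 0.06 without passing. Both calls were lost within cells without core cycle genes, where SLA-2 was at −0.00204, and with DESeq2 (adjusted p = 0.353 and 0.053). Only 135 and 194 PSMB9-detected cells had no core cycle gene. The interferon list summed to 260 against 158 CPM in library 1 and to 184 against 145 CPM in library 2. Of this, ISG15, which did not pass, was 103 against 37.0 and 47.4 against 24.9 CPM. The PSMB9-detected cells also held more UMIs (median 22175 against 21074 and 21395 against 20065). Their core cell cycle list summed to 1409.7 against 1321.3 and 1462.4 against 1358.5 CPM. The part of these differences in the result was not tested. PSMB8 did not pass with DESeq2 (adjusted p = 0.261), within cells without core cycle genes (0.28, edgeR adjusted p = 0.281) or without the library in the model. In cells grouped without thinning, 16 members were called higher. There the PSMB9-detected cells held more UMIs (median 25092 against 17166 in library 1, 24434 against 17271 in library 2). No share of all genes called was taken for that grouping, and the part of depth was not tested.

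**Figure D5:**
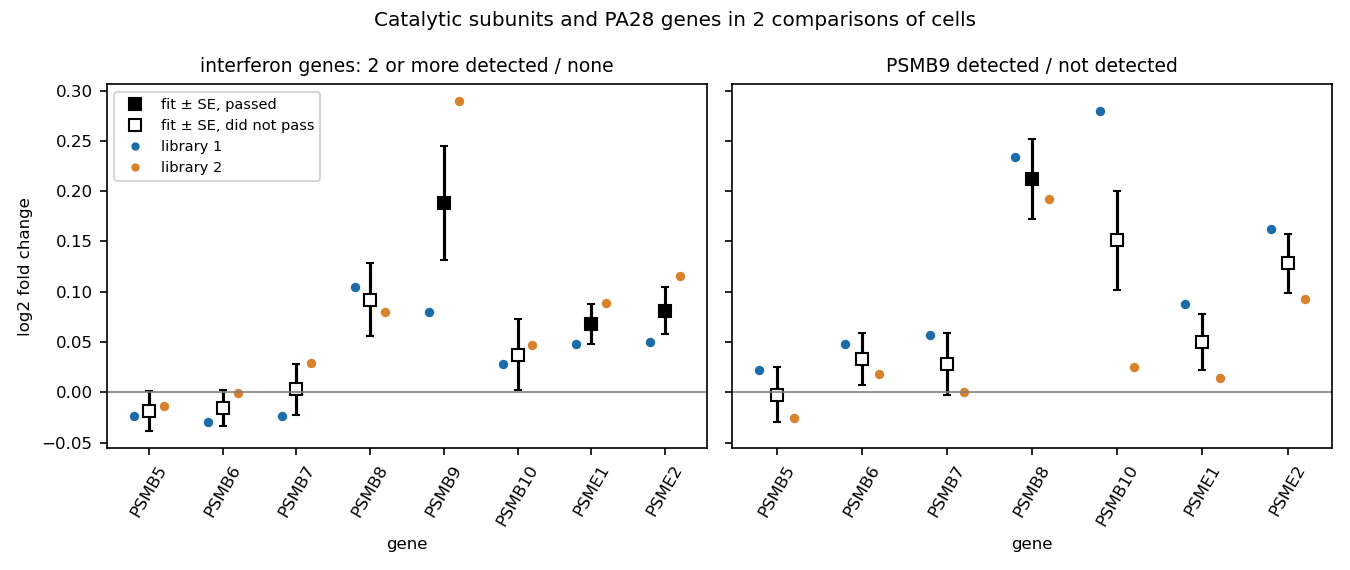
Log2 fold change of the catalytic subunits and the PA28 genes in cells with at least 2 against 0 interferon-response genes (left) and in PSMB9-detected against undetected cells (right; PSMB9 left out). Squares are the edgeR fit with its SE, filled where called, and dots are library 1 (blue) and library 2 (orange); PSMB9 differs more in library 2 (0.29) than in library 1 (0.08) on the left, and PSMB8 is raised in both libraries on the right.

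Cells with heat shock transcripts showed no called proteasome gene. UMIs of at least 2 of 11 heat shock genes found (of 13 listed) were present in 7821 cells of library 1 and 5816 of library 2, and none in 344 and 1837 cells. Of 48 members tested with edgeR, 0 were called higher and 0 lower, with 0 at an unadjusted p under 0.05 and 0 called by DESeq2, beside 0.0402% and 0.00574% of all genes. The 7 genes called higher among all genes all belong to the heat shock list that set the classes. Outside that list no gene was called higher, so this comparison cannot tell whether proteasome genes differ. PSMB5 was at 271 and 257 CPM without and 261 and 263 CPM with heat shock transcripts, so that it moved in opposite directions in the libraries (−0.05 ± 0.08). The median was −0.06 for the members and 0.01 for all genes, or −0.02 and 0.06 with library totals. For PSMB8 the SE was 0.09 on the log2 scale, against 0.06 in the cycling comparison.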

How the data were processed

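The authors deposited a matrix of UMI counts (genes by barcodes, whole numbers, not normalized) for each library. Its header, per the file headers, names Cell Ranger 7.0.0, and the submitters' processing notes name Cell Ranger 7.00 and Sscrofa11.1, and the annotation is not given in the sources used here.

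Barcodes with at least 1000 genes were kept as cells (86.2% and 92.5%, with 209737159 and 245421850 UMIs). No doublet caller was run. Classes were set on cells thinned to 5000 UMIs, and full counts were summed per library and class and tested with edgeR 4.0.16 in R 4.3.3 (quasi-likelihood, robust, TMM, filterByExpr), with the library as replicate block because both classes of a comparison come from the same libraries. The fits were tested on simulated data. DESeq2 1.42.0 was an alternative. The libraries' counts differed by more than sampling noise (chi-square per degree of freedom 194).

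The members and gene lists were chosen with earlier results of these data known. Named per comparison were PSMB5 to PSMB10, PSME1 and PSME2, the 4 members called with the largest change in each direction, the 5 highest and 5 lowest levels, and the 4 genes called with the largest change of each other list. Other members were named after their values were seen. Gene positions come from RefSeq. Some genes that this rule names are not reported here.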

Additional observations from a re-analysis of the deposited data

How the results depend on the processing

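The fits have few degrees of freedom, and no count of members could be had with a library left out, since no residual degree of freedom is left. Changes in each library alone were looked at instead. Of 1430 values of 140 gene changes under the alternatives that have a test, 1074 kept their direction and side of the threshold, 286 no longer passed, 18 passed newly and 52 turned sign. Without library 1 none of the 140 moved by more than the spread between the libraries, and without library 2 5 did. The fitted change mostly lies between those of the 2 libraries, so this outcome was nearly fixed in advance and is no check of the calls. The stricter PSMB9 class (2 UMIs) was not run, since it held under 50 cells in library 1. Library totals in place of TMM, the alternative chosen after seeing the data, moved the median of all genes by less than 0.1. The causes of the shifts below were not tested.

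The replicate block, the library, decided nearly all calls. Apart from the 0.5 log2 rule, the share of all genes called was not taken under the alternatives. Counts under them, here and above, therefore cannot be read as particular to the members. With no replicate block, the members called higher and lower were 1 and 0 for cycling cells, 1 and 0 for S against non-cycling, 2 and 0 for G2/M against non-cycling, and 0 and 0 for G2/M against S, for the interferon classes and for PSMB9 detection. Counts with 0.5 log2 added to the call rule were 2 and 0 (cycling), 1 and 0 (S), 2 higher (G2/M against non-cycling), 0 and 1 (G2/M against S), 0 and 1 (interferon) and 0 higher (PSMB9). DESeq2 gave 0 lower for cycling, 9 higher for G2/M against S, 0 and 1 for interferon and 0 higher for PSMB9. Classes set without thinning gave 5 and 1 for S, 7 higher for G2/M against S, 12 and 1 for interferon and 16 and 1 for PSMB9. Within cells with no core cycle gene the counts were 0 and 0 for interferon and 0 higher for PSMB9. Library totals gave 0 lower (cycling), 1 lower (S), 1 higher (interferon) and 2 higher (PSMB9). RLE scaling and a minimum of 2000 genes gave 2 higher for PSMB9, as did leaving out the 8% of cells with most UMIs, which also gave 0 lower for cycling and 1 lower for G2/M against non-cycling. Without the filter on low counts there were 0 lower for cycling and 1 lower for G2/M against non-cycling.

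Sign changes were mostly of uncalled values near 0. With classes set without thinning, where the interferon classes differ in median depth (9028 against 23524 UMIs in library 1), these log2 fold changes turned sign. For heat shock they were 0.173 (PSMB5), 0.227 (PSMB6), 0.139 (PSMB7), 0.122 (PSMB8), 0.512 (PSMB9), 0.195 (PSME1) and 0.292 (PSME2). For interferon they were −0.00919 (NFE2L1), 0.143 (PSMB5), 0.141 (PSMB6), 0.0542 (PSMG2), 0.0828 (PSMG4) and 0.0900 (UBE2S). For G2/M against S they were −0.00754 (PSMB5), 0.0653 (PSMB7), −0.0550 (PSMB8), −0.153 (PSMB9), −0.0186 (PSMD10), −0.0180 (PSME1), 0.0151 (UBA6) and −0.0222 (UBE2D3). The others were PSME1 for S (0.0346), G2/M (0.0166) and cycling (0.212), PSMB10 for cycling (0.0815) and PSMB5 for PSMB9 detection (0.0744).

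With library totals the sign turned for PSMB10 (0.0353) and PSME1 (0.00842) in cycling cells, PSME1 in G2/M against non-cycling (0.0232), PSMB5 (−0.00753) and PSME2 (−0.0264) in G2/M against S, PSMB5 for PSMB9 detection (0.00593), PSMB7 for heat shock (0.0262) and PSMB7 for interferon (−0.0115). Within cells with no core cycle gene it turned for interferon in NFE2L1 (−0.0351), PSMB5 (0.0492), PSMB6 (0.0136) and UBE2S (0.0330), and for PSMB9 detection in PSMB5 (0.0824), PSME1 (−0.00373) and SLA-2 (−0.00204). DESeq2 turned PSMB5 for PSMB9 detection (0.000650) and PSME2 for G2/M against S (−0.0110), and RLE scaling the same genes (0.000469 and −0.0110). Without the cells with most UMIs these were 0.000683 and −0.0593, and PSMB7 for interferon was −0.00122. Without the filter PSMB7 was 0.00627 for heat shock and −0.00826 for interferon. With 1 more detected gene PSMB10 (−0.00773) and PSMB7 (−0.0172) turned for interferon.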
